A study of Mus musculus with 13 samples.

Results

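MAP kinase phosphatases, Sprouty proteins and Spred proteins are the brakes of the MAP kinase pathways, and 10 of their transcripts are described here in injured mouse muscle with and without a glucocorticoid. The genes were taken by symbol from the deposited expression table: the dual-specificity phosphatases Dusp1, Dusp4, Dusp5, Dusp6, Dusp7 and Dusp10, the Sprouty genes Spry1, Spry2 and Spry4, and Spred1. All 10 were among the 14911 genes of the table, and all 10 had a mean log2 CPM of at least 1 (CPM, read counts scaled to the size of each library). They held 49 to 1525 reads per gene and library.

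Messenger RNA was sequenced from the whole hamstring of female mice of the strain C57BL/6. Every mouse had received cardiotoxin into that muscle at 0.32 mg/kg, a toxin of snake venom under which muscle fibres die and are then rebuilt, and was sampled on day 4. Between the cardiotoxin and the sampling, mice were injected intraperitoneally once a day. The saline group (4 mice) received saline, and the dexamethasone group (9 mice) the synthetic glucocorticoid dexamethasone at 10 mg/kg. Each library came from 1 mouse, and no age is given in the labels. A saline mouse whose muscle had formed bone was left out by the submitters, while bone had formed in all dexamethasone mice, so that effects of the drug and of bone formation cannot be told apart.

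As background, MAP kinases are switched on by phosphorylation of a threonine and a tyrosine, and dual-specificity phosphatases remove both phosphates. Dusp6 and Dusp7 encode cytoplasmic enzymes that act on ERK, the kinase driven by growth factors through RAS. Dusp1, Dusp4 and Dusp5 encode inducible nuclear enzymes, of which Dusp5 acts on ERK, and Dusp10 encodes an enzyme that prefers the stress kinases p38 and JNK. Sprouty and Spred proteins hold back the pathway further up, between growth factor receptors and RAF. Many of these genes are switched on by ERK itself, which closes a negative feedback loop, and Dusp1 is also a textbook target of the glucocorticoid receptor. In muscle, Spry1 is known for its part in the return of satellite cells to rest.

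Depth was similar in the groups, at 25531487 to 32537345 reads in saline and 28021111 to 34942266 in dexamethasone libraries (difference of means, exact permutation p of 0.485, two-sided, n = 4 and 9). The effective library size the authors scaled by was 0.88 to 1.00 times the total in saline and 0.99 to 1.10 times under dexamethasone (exact permutation p of 0.00559, two-sided). The 10 most abundant genes took 15.4 to 20.1% and 12.8 to 16.2% of reads (exact permutation p of 0.0126, two-sided). The part of these differences in the results was not tested, and median centring and quantile normalisation left the calls of the 10 feedback genes as they were. The 18 mature fibre markers checked were detected in all 13 libraries, as the tissue label requires. Dexamethasone library 4 stood apart for hormone targets, with Fkbp5 at 7.92 log2 CPM against a group median of 6.11. Among the 10 feedback genes it was the highest dexamethasone library for Dusp7 and Spred1 and the lowest for Dusp10, Spry1 and Spry2. The same 5 genes were called without it.

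The genes that rose under dexamethasone were Dusp6, Dusp4, Dusp5, Spred1 and Spry4, by 1.46- to 1.83-fold. Dusp1, Dusp7, Dusp10, Spry1 and Spry2 did not pass the test, with log2 fold changes of -0.12 to 0.030. In whole muscle, more or fewer cells of a type and more or less RNA per cell cannot be told apart. In counts, 5 of 10 were higher and 0 lower at an adjusted p under 0.05 (limma, Benjamini-Hochberg over all genes), against 25.2% of all genes higher, 22.9% lower and 48.1% in either direction. Of the 10, 4 were called and at least 1.5-fold higher, against 7.14% of all genes. At an unadjusted p under 0.05, 0 were lower, against at least 22.9% of all genes, as every gene called lower also passes without adjustment. In 4 of the 10 every dexamethasone library lay above every saline library, against 12.9% of all genes. The median log2 fold change was 0.29 over the 10 genes and 0.0071 over all genes. In the authors' deposited table, 5 of the 10 were higher and 0 lower, against 24.0% of all genes higher and 23.0% lower.

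**Figure D1:**
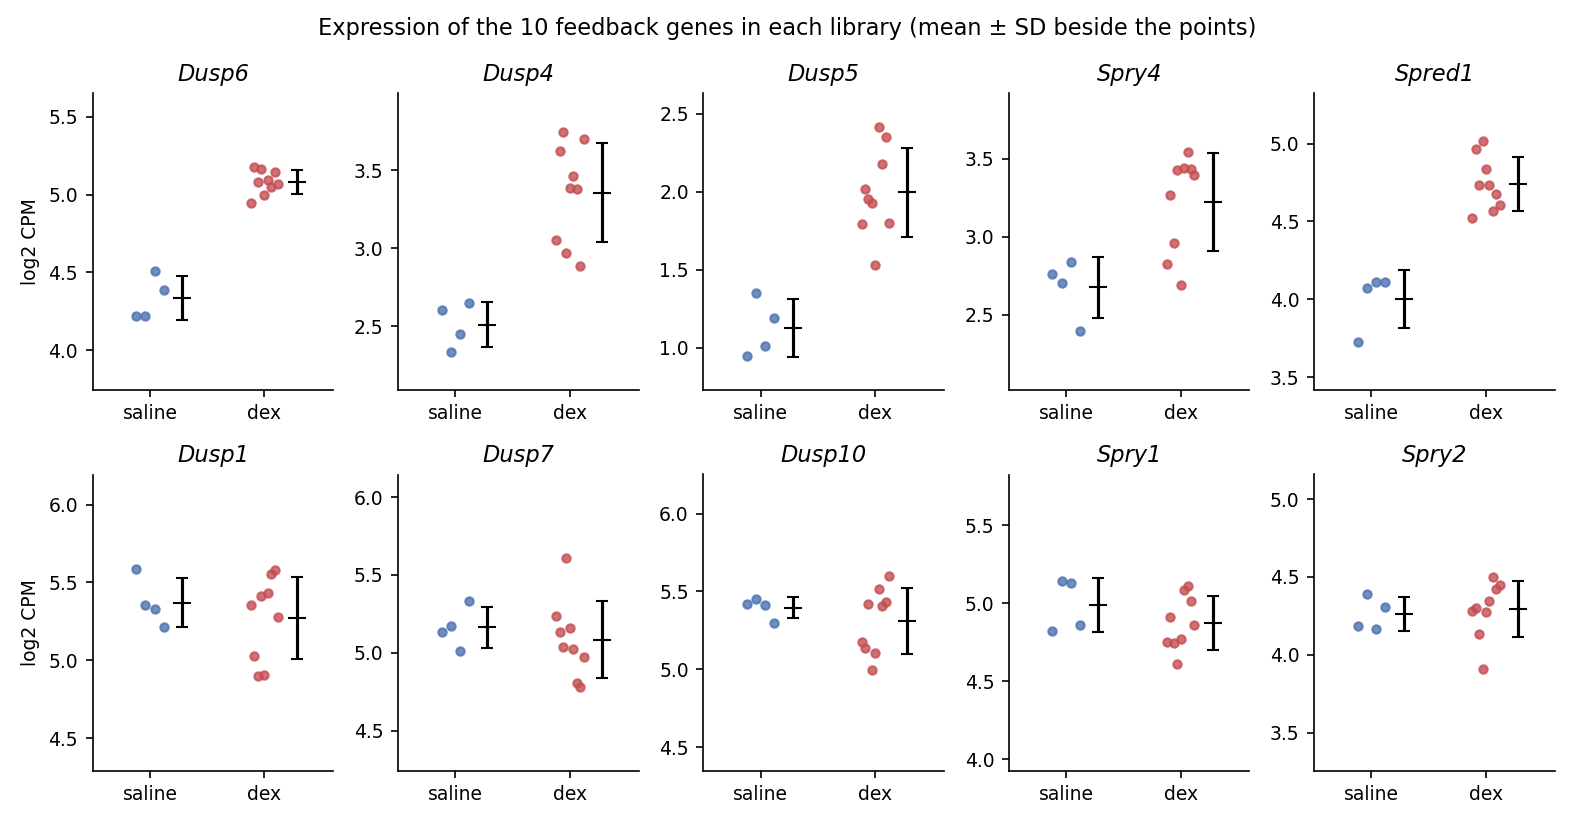
Expression of the 10 genes as log2 CPM, with 1 point per library, 4 saline (blue) and 9 dexamethasone (red, "dex"), and the mean with its SD drawn beside the points. Each panel spans the same log2 distance on its vertical axis, so that Dusp6, Dusp4, Dusp5 and Spred1 can be seen to separate by group, Spry4 to overlap in part, and the lower 5 panels to overlap widely.

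The cytoplasmic ERK phosphatases parted. Dusp6 (Entrez 67603, mm10 chromosome 10, 99263231 to 99267489) stood at 4.22, 4.22, 4.51 and 4.39 log2 CPM in saline libraries 1, 2, 3 and 5. The 9 dexamethasone libraries ran from 4.95 through a median of 5.08 to 5.18. No dexamethasone library came near the saline range, and their SD of 0.076 was the smallest of any of the 10 genes in that group. The rise was 1.68-fold, or 0.75 ± 0.061 on the log2 scale (SE; adjusted p 3.21e-07, limma), seen in 9 of 9 libraries. Dusp7 had 5.14, 5.17, 5.01 and 5.33 log2 CPM in saline and 4.78, 5.04 and 5.61 (lowest, median, highest) under dexamethasone. Its groups overlapped, with 1 dexamethasone library above and 3 below the saline range. The log2 fold change of Dusp7 was -0.079 with a 95% interval of -0.33 to 0.17 (adjusted p 0.605, limma), and -0.14 without dexamethasone library 4.

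Among the inducible nuclear phosphatases, Dusp4 and Dusp5 rose. Dusp4 (Entrez 319520, mm10 chromosome 8, 34807297 to 34819894) was at 2.60, 2.34, 2.45 and 2.65 log2 CPM in saline and at 2.88, 3.38 and 3.75 (lowest, median, highest) under dexamethasone. All 9 libraries lay above the saline ones, with dexamethasone libraries 8, 4 and 1 nearest to them. The rise was 1.80-fold (log2 difference 0.85 ± 0.15, SE; adjusted p 0.000297, limma). Dusp5 (Entrez 240672, mm10 chromosome 19, 53529109 to 53542431), the scarcest of the 10, was at 0.94, 1.35, 1.01 and 1.19 log2 CPM in saline. Under dexamethasone it ran from 1.53 through 1.95 to 2.42, again above saline in 9 of 9 libraries. Its rise was 1.83-fold (log2 difference 0.87 ± 0.15, SE; adjusted p 0.000233, limma). An antisense transcript is annotated over 22.1% of the exon bases of Dusp5, and whether the counting used strand is not given in the sources used here.

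Dusp1 (Entrez 19252, mm10 chromosome 17, 26505590 to 26562128), the stress- and hormone-induced phosphatase, did not pass. It stood at 5.59, 5.35, 5.33 and 5.22 log2 CPM in saline and at 4.90, 5.36 and 5.58 (lowest, median, highest) under dexamethasone. Dexamethasone libraries 2, 3 and 5 lay below the saline range, the other 6 lay within it, and 0 lay above it. The log2 fold change was -0.099 with a 95% interval of -0.36 to 0.17 (adjusted p 0.538, limma). On the 8 libraries whose mouse numbers occur in both groups (1, 2, 3 and 5) Dusp1 was lower by the test, at -0.32 on the log2 scale (adjusted p 0.0345, limma). Dusp10 was at 5.42, 5.45, 5.41 and 5.30 in saline and at 5.00, 5.41 and 5.60 under dexamethasone, a log2 fold change of -0.086 (95% interval -0.29 to 0.12; adjusted p 0.490, limma). Its dexamethasone libraries fell on both sides of the saline range, with 2 above and 4 below it.

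The promoters of Dusp5 and Dusp1 are shown because these inducible phosphatases differed in response and carry different elements in this stretch. A link between the elements and the response was not tested. Promoter sequences came from RefSeq (GRCm38.p6, the build called mm10), whose table matched 8 of the 10 genes, Dusp4 and Spry4 not among them. Each window below runs from 250 to 51 bases before the RefSeq start, 5′ to 3′ on the strand of the gene. The gene spans given above are from GENCODE, whose starts differ. The Dusp1 window lies inside its GENCODE span of 26505590 to 26562128, and the GENCODE span of Dusp5 begins at 53529109. The Dusp5 window ends before that span, yet 1 GENCODE exon, not of Dusp5, overlaps it, against 0 for the Dusp1 window. Capitals mark CArG boxes (CC, then 6 bases of A or T, then GG), the site of serum response factor, in Dusp5 (chr19:53528895-53529094, plus strand). In Dusp1 (chr17:26508523-26508722, minus strand) they mark the cyclic AMP response element TGACGTCA.
Dusp5: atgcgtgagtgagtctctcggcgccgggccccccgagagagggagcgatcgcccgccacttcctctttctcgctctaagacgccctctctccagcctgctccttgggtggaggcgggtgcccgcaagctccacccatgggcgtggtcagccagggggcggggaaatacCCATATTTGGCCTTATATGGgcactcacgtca
Dusp1: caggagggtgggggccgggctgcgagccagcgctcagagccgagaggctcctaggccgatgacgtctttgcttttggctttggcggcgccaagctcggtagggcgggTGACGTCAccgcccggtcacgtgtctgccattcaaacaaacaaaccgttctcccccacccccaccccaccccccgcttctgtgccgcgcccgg

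Dusp5 held 2 CArG boxes back to back, from 82 to 63 bases before its RefSeq start, and was the only one of the 8 promoters with a match. Of all 32851 promoters of 300 bases in the table, 1.63% held at least 1 CArG box and 0.0183% at least 2. Dusp1 was the only one with TGACGTCA, which 1.79% of promoters held. The shorter TGACG, which is part of that element, was in the Dusp1 and Dusp5 windows and in 20.8% of all promoters. The AP-1 site TGANTCA (7.81% of promoters), the ETS site CCGGAAGT (3.89%), the palindromic glucocorticoid response element (3 promoters) and its AGAACA part (19.0%) were in 0 of the 8. Both strands were searched, and a match is a run of letters, not a shown binding site.

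Of the Sprouty genes, Spry4 rose and Spry1 and Spry2 did not pass. Spry4 (Entrez 24066) was at 2.76, 2.70, 2.84 and 2.40 log2 CPM in saline and at 2.69, 3.40 and 3.54 (lowest, median, highest) under dexamethasone. Dexamethasone libraries 1 and 5 lay within the saline range and the other 7 above it. The rise was 1.46-fold (log2 difference 0.55 ± 0.15, SE; adjusted p 0.00756, limma). On the 8 libraries numbered in both groups, which hold dexamethasone libraries 1, 2, 3 and 5, it was 0.26 and did not pass (adjusted p 0.162, limma). Spry1, at 4.82, 5.15, 5.13 and 4.86 in saline and 4.61, 4.86 and 5.11 under dexamethasone, differed by -0.12 on the log2 scale (95% interval -0.31 to 0.080; adjusted p 0.316, limma). No dexamethasone library exceeded the highest saline library, and 4 lay below the lowest. A transcript on the opposite strand is annotated over 24.4% of the exon bases of Spry1. Spry2 was at 4.18, 4.39, 4.16 and 4.31 in saline and 3.91, 4.30 and 4.50 under dexamethasone. The log2 difference was 0.030 (95% interval -0.16 to 0.22; adjusted p 0.812, limma). Its dexamethasone libraries lay on both sides, with 3 above and 2 below the saline range.

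Spred1 (Entrez 114715, mm10 chromosome 2, 117121374 to 117182279), which encodes a membrane-bound inhibitor that recruits the RAS-inactivating protein neurofibromin, rose. It was at 3.73, 4.07, 4.11 and 4.11 log2 CPM in saline and at 4.52, 4.73 and 5.02 (lowest, median, highest) under dexamethasone. All 9 dexamethasone libraries lay above saline, and saline library 1 was low for its group. The rise was 1.66-fold (log2 difference 0.74 ± 0.096, SE; adjusted p 1.86e-05, limma), and 0.64 on the log2 scale without saline library 1.

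Of 17 other feedback phosphatases and inhibitors measured, 8 were higher and 3 lower (47.1% and 17.6%, against 25.2% and 22.9% of all genes), with a median log2 fold change of 0.097, and 1 was lower without saline library 2, saline library 3 or dexamethasone library 2. Spred2, the close relative of Spred1, rose 1.59-fold, from a mean of 3.60 ± 0.20 to 4.27 ± 0.071 log2 CPM (SD over 4 and 9 libraries), above saline in 9 of 9 libraries (adjusted p 4.59e-06, limma). Errfi1, an inhibitor of the EGF receptor, rose 1.96-fold and Rasa1, a RAS-inactivating protein, rose 1.42-fold. Dusp9, a relative of Dusp6 named after its values were seen, rose 2.21-fold from a low 0.073 ± 0.48 log2 CPM. Dusp2 and Dusp16 did not pass, with log2 fold changes of -0.30 and -0.068, though Dusp2 passed without dexamethasone library 6 (-0.37, adjusted p 0.0427, limma). Dusp8, a phosphatase of the stress kinases, was 1.23-fold lower at an adjusted p of 0.0467 (limma), a call lost without any 1 of saline libraries 1, 2 and 3 or dexamethasone libraries 1 to 6. Pebp1, which encodes a RAF inhibitor, and Spred3 were named after their values were seen. Pebp1 was 1.26-fold lower (adjusted p 0.000298, limma), below saline in 9 of 9 libraries. Spred3 was 1.20-fold lower (adjusted p 0.0372, limma), a call lost without any 1 of saline libraries 2, 3 and 5 or dexamethasone libraries 2, 7, 8 and 9. Spry3 was not analysed here.

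**Figure D2:**
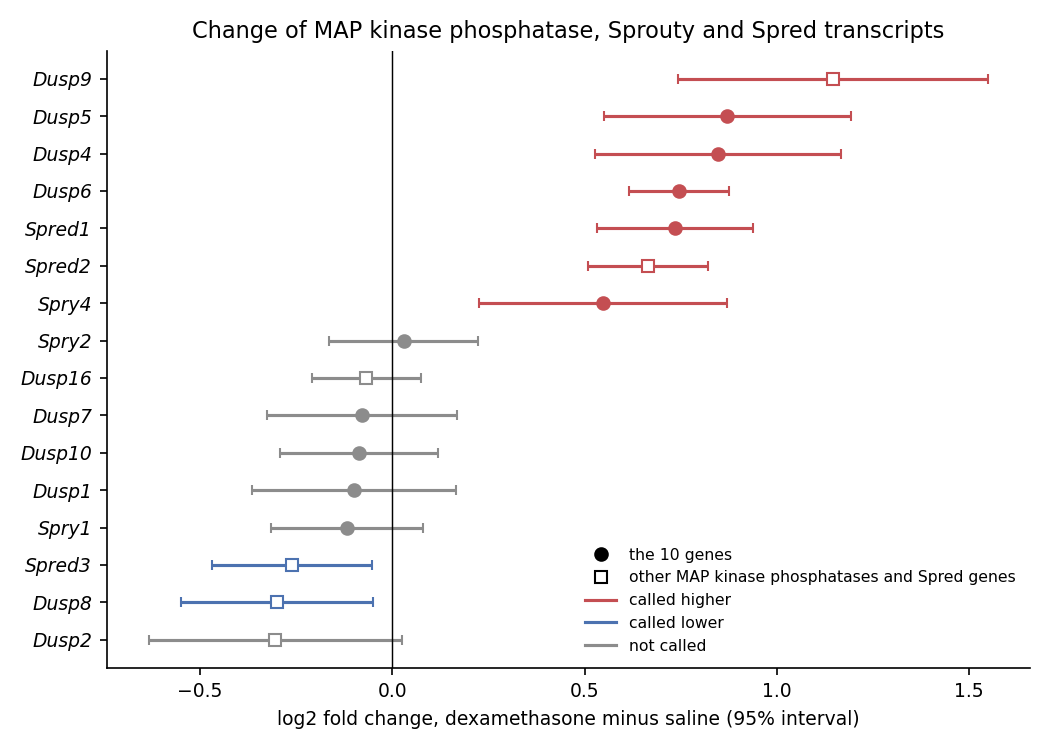
Log2 fold changes of dexamethasone minus saline with 95% intervals from limma, for the 10 genes (filled circles) and for the other MAP kinase phosphatases and Spred genes measured (open squares), in order of size. Red marks genes called higher, blue lower and grey those that did not pass. Dusp9, Dusp5, Dusp4, Dusp6, Spred1, Spred2 and Spry4 lie to the right of 0, and the intervals of Dusp1, Dusp7, Dusp10, Spry1 and Spry2 include it.

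The differences between relatives were taken within libraries, as the log2 ratio of 1 gene to another, for 7 pairs of the same class. Exact permutation tests ran over all 715 assignments (two-sided, n = 4 and 9, adjusted over the 7 pairs). The pairs were chosen after the values were seen, which the adjustment does not cover. Their p-values in part restate the calls of the single genes. The ratio of Dusp6 to Dusp7 was -0.83 ± 0.22 in saline and -0.0046 ± 0.25 under dexamethasone (SD), a difference of 0.82 (exact permutation, adjusted p 0.00490), above saline in 9 of 9 libraries. Dusp5 gained 0.97 on Dusp1 (exact permutation, adjusted p 0.00490), in 9 of 9 libraries, and Dusp4 gained 0.95 (exact permutation, adjusted p 0.0122), in 8 of 9. The ratio of Dusp4 to Dusp5 differed by -0.024 (exact permutation, adjusted p 0.931), but it spread more under dexamethasone, from 0.53 to 1.90. Dexamethasone library 8, high in Dusp5 and lowest in Dusp4, gave the low end of that range.

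Spry4 gained 0.66 on Spry1 (exact permutation, adjusted p 0.00653), above saline in 8 of 9 libraries, and 0.52 on Spry2 (exact permutation, adjusted p 0.0313), in 7 of 9. The latter call was lost without saline library 2 (0.48, exact permutation, adjusted p 0.0827) or saline library 5 (0.41, exact permutation, adjusted p 0.101). Spry1 against Spry2 differed by -0.15 (exact permutation, adjusted p 0.0946), and by -0.20 without saline library 5 (exact permutation, adjusted p 0.0318).

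**Figure D3:**
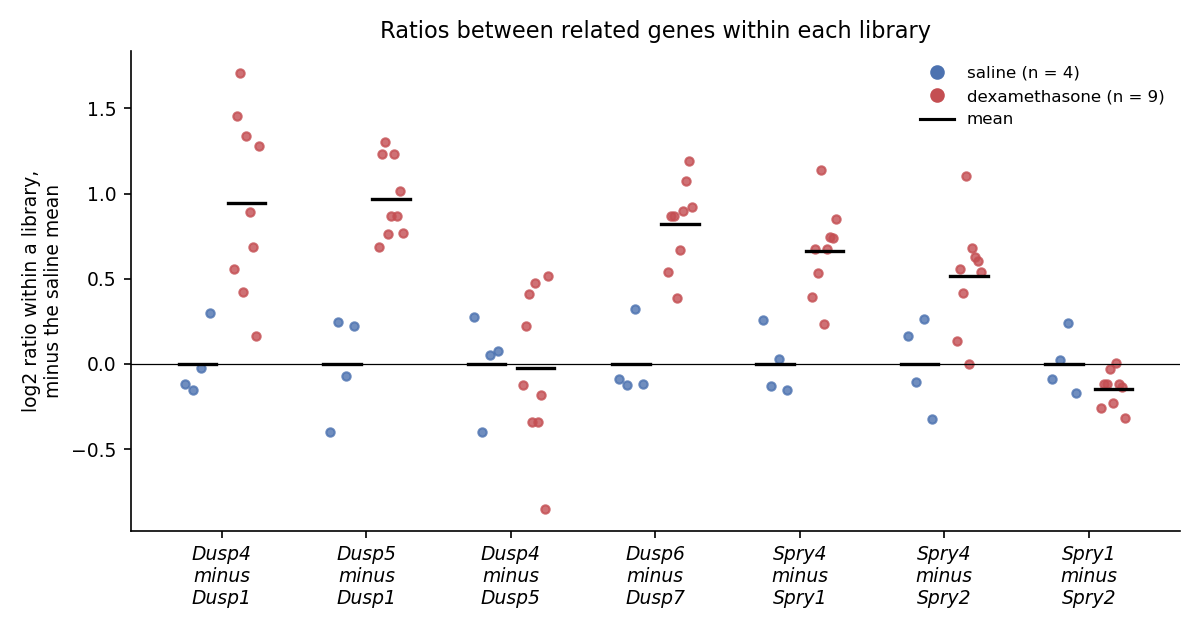
Log2 ratio of 2 related genes within each library, with the saline mean of that ratio subtracted, for the 7 pairs. Blue points are the 4 saline libraries, red points the 9 dexamethasone libraries and bars their means. The ratios of Dusp5 to Dusp1 and of Dusp6 to Dusp7 lie above saline in 9 of 9 libraries, while those of Dusp4 to Dusp5 are scattered around 0.

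Scaled by exon length, the genes ordered differently in the groups. In saline, Dusp10 had the highest level at 13.8 ± 0.62 CPM per kb of exon (SD, n = 4), followed by Dusp1 at 12.6 ± 1.40, Spry1 at 11.0 ± 1.30, Dusp7 at 10.7 ± 0.98 and Spry2 at 9.20 ± 0.70. The ranges of these neighbours overlapped. Dusp6 followed at 6.46 ± 0.64, clear of its neighbours on both sides. Spred1 at 2.38 ± 0.29 and Dusp4 at 2.08 ± 0.21 overlapped, and Spry4 at 1.35 ± 0.17 and Dusp5 at 0.88 ± 0.12 were each clear of the gene above. Under dexamethasone Dusp6, at 10.8 ± 0.56 CPM per kb (SD, n = 9), moved from the sixth place to the third, into the range of Dusp7 and Spry1. The other genes that rose stayed at the foot of the order, with Spred1 at 3.96 ± 0.48, Dusp4 at 3.81 ± 0.82, Spry4 at 2.0 ± 0.40 and Dusp5 at 1.63 ± 0.32 CPM per kb. Apart from Dusp6, each gene that rose had a lower mean level per length in both groups than each of the 5 that did not pass.

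**Figure D4:**
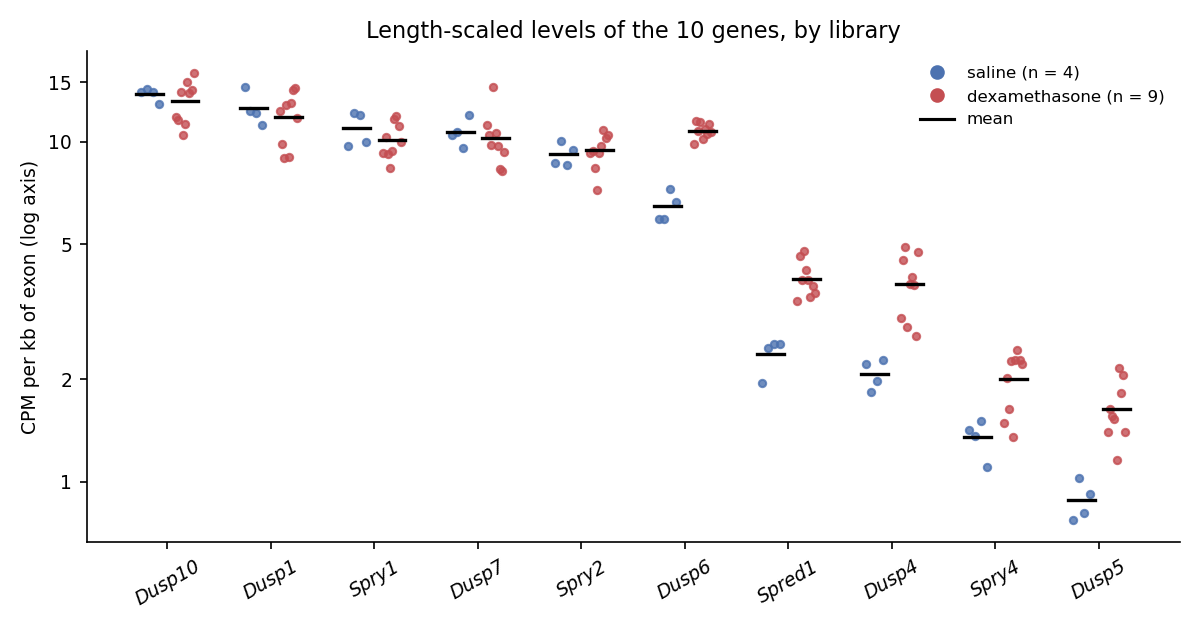
Levels in CPM per kb of exon on a log axis, with 1 point per library (4 saline in blue, 9 dexamethasone in red) and bars at the means. The genes stand in their saline order, from Dusp10 at 13.8 to Dusp5 at 0.88. Dusp6 passes from 6.46 to 10.8 and joins the abundant genes.

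The messages differed in a feature of their tails. The AU-rich heptamer TATTTAT, a core of elements known to shorten the life of messages, was counted in the longest 3′ untranslated region that GENCODE annotates for each gene. It occurred 3 times in Dusp1, 2 times in Spry1, 2 times in Spry2, 4 times in Spry4 and 3 times in Spred1, and 0 times in Dusp4, Dusp5, Dusp6, Dusp7 and Dusp10. Of 14321 genes of the table with such a region, 29.5% held it at least once. Genes with and without it were found both among those that rose and among those that did not pass.

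For the 4 genes that rose at least 1.5-fold, the genes of most similar profile were found by the root mean square difference of log2 CPM over the 13 libraries, each gene centred on its own mean. For Dusp6 these were Ldlrad3, Golt1b and Nek6, at 0.068 to 0.093. For Spred1 they included Bmp2k and Fndc3b, at 0.095 and 0.096. Dusp4 had no neighbour as near, with Fmr1, Pmepa1 and F3 at 0.18 to 0.19. Dusp5 was nearest to Fosl2, the immediate early gene Ier2 and Arid5a, at 0.19 to 0.20. Among the 10 genes, Dusp6 and Spred1 were each the nearest to the other, at 0.13, as were Spry1 and Spry2, at 0.14. Of the 12236 genes compared for each, Spred1 ranked only 65 in nearness to Dusp6, and Dusp6 ranked 41 in nearness to Spred1.

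Transcripts of 3 kinases that the phosphatases act on did not pass the test. For the ERK gene Mapk3 the log2 difference was -0.052 ± 0.051 (SE; adjusted p 0.423, limma), the p38 gene Mapk14 had -0.036 ± 0.055 (adjusted p 0.626, limma) and the JNK gene Mapk8 had 0.14 ± 0.059 (adjusted p 0.0593, limma). Mapk8 passed without saline library 1 (0.18, adjusted p 0.0293, limma) and without dexamethasone library 1, 2 or 3 (0.15 each). The p38 genes Mapk11 and Mapk12, named after their values were seen, did pass, in opposite directions. Mapk11 rose 1.31-fold (adjusted p 0.00175, limma) and Mapk12 was 1.29-fold lower (adjusted p 0.000813, limma), each in 9 of 9 libraries. The p38 gene Mapk13 and the JNK gene Mapk9 did not pass. Of 24 genes from RAS to ERK and its substrates, 4 were higher and 5 lower (16.7% and 20.8%, against 25.2% and 22.9% of all genes; median -0.018), and under quantile normalisation 8 were lower. Hras was 1.62-fold lower in 9 of 9 libraries, and Rps6ka3, a kinase downstream of ERK, rose 1.52-fold. Of 20 p38 and JNK cascade genes, 2 were higher and 6 lower (10.0% and 30.0%, against the same shares of all genes; median -0.021). Map2k6, which activates p38, was 2.02-fold lower, Mapkapk3 1.32-fold and Rps6ka5 1.41-fold lower.

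Transcripts commonly read as ERK output rose more often than they fell. Of 18 measured, 13 were higher and 0 lower (1 lower without saline library 5 or dexamethasone library 9), with a median log2 fold change of 0.53, against 25.2% of all genes higher. Ier3, an early response gene, rose 2.68-fold, Myc 1.90-fold and the membrane protein gene Emp1 1.97-fold. The ETS factor genes Etv4 and Etv5, often read together with Dusp6 as FGF output, did not pass, with log2 fold changes of 0.22 and 0.21 (adjusted p 0.122 and 0.0921, limma). Etv5 had 0.33 without saline library 2 and then passed (adjusted p 0.00492, limma). Of 20 immediate early genes, 10 were higher and 0 lower, against 25.2% and 22.9% of all genes (median 0.51). On the 8 libraries numbered in both groups 4 were lower, and without dexamethasone library 6 or 7 1 was lower. Junb rose 3.36-fold, Egr1 3.02-fold, Egr3 3.47-fold, Fos 2.66-fold and Maff 2.05-fold, each in 9 of 9 libraries.

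Of 29 FGF and receptor tyrosine kinase genes, the inputs to the pathway, 9 were higher and 2 lower (31.0% and 6.90%, against 25.2% and 22.9% of all genes; median 0.20), with 1 to 3 lower when single libraries were left out. Met, the receptor of hepatocyte growth factor, rose 1.5-fold and Sdc4, a surface proteoglycan that binds growth factors, 1.61-fold, while Fgfrl1, an FGF receptor without a kinase domain, was 2.33-fold lower. Fgf7 rose 1.32-fold, a call that ended on the 8 libraries numbered in both groups (0.35, adjusted p 0.0711, limma), and the receptor gene Fgfr1 did not pass (0.065 on the log2 scale, adjusted p 0.384, limma). Fgf2 rose 1.79-fold (adjusted p 0.0137, limma), a call that ended when saline library 3 (0.67, adjusted p 0.0633) or saline library 5 (0.70, adjusted p 0.0544) was left out.

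Dusp1 can be set beside other targets of the glucocorticoid receptor, of which 9 of 22 were higher and 4 lower (40.9% and 18.2%, against 25.2% and 22.9% of all genes; median 0.084). The metallothionein gene Mt2 rose 3.99-fold, Angptl4 3.42-fold and Anxa1 1.80-fold. Zfp36, which encodes a protein that destabilises AU-rich messages, rose 1.29-fold (log2 difference 0.37; adjusted p 0.00391, limma), but not on the 8 libraries numbered in both groups (0.23, adjusted p 0.0502, limma). Tsc22d3 was 1.67-fold lower, below saline in 8 of 9 libraries, with dexamethasone library 4 within the saline range. Per1, like Dusp1, did not pass (log2 difference 0.011, adjusted p 0.964, limma). Fkbp5 had 0.46 and did not pass (adjusted p 0.158, limma), although 9 of 9 libraries lay above saline. It passed with 0.26 without dexamethasone library 4 (adjusted p 0.00123, limma).

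**Figure D5:**
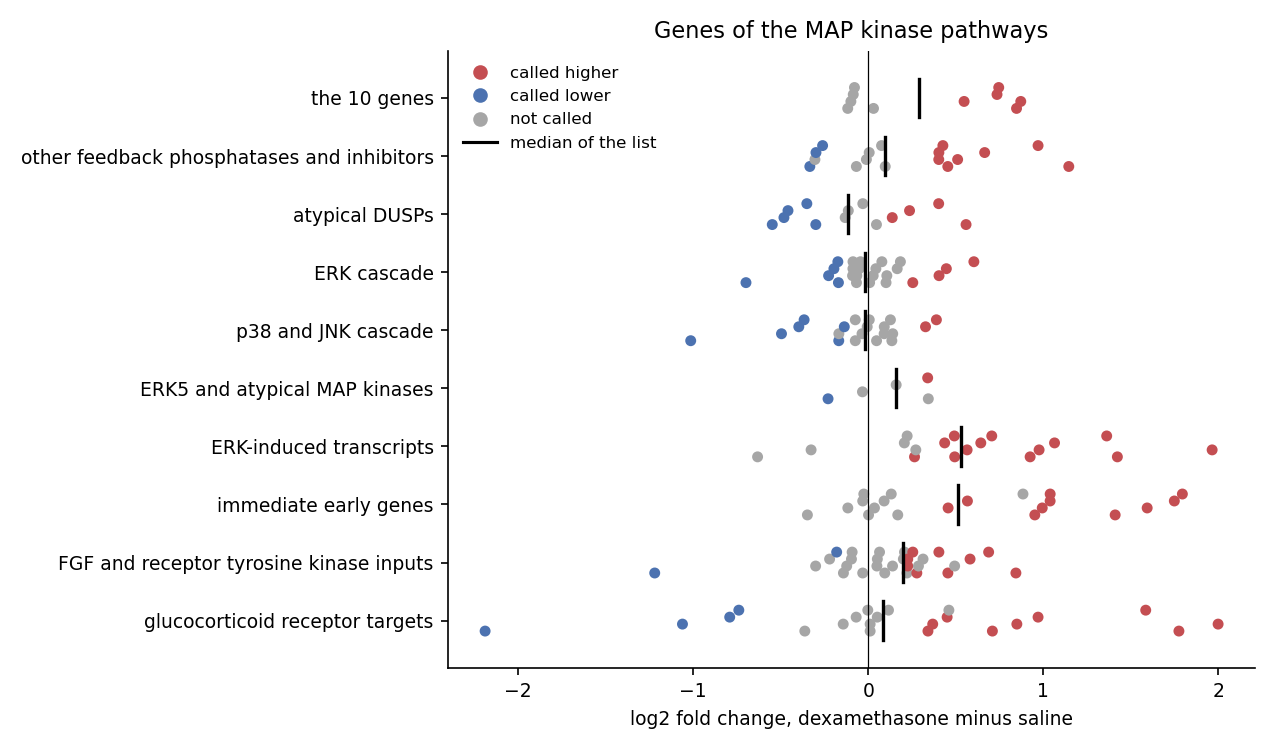
Log2 fold changes (dexamethasone minus saline) of the measured genes of each pathway list, 1 point per gene, with a black bar at the median of the list. Red points are called higher, blue lower and grey did not pass. The lists of ERK-induced transcripts and immediate early genes have medians of 0.53 and 0.51, those of the ERK and of the p38 and JNK cascades -0.018 and -0.021.

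Markers of the cell types in whole muscle moved in part with the treatment. The counts below stand beside 25.2% of all genes higher and 22.9% lower. Of 18 mature fibre markers 0 were higher and 8 lower, and their summed level was 160295 to 236378 CPM in saline and 106655 to 158757 under dexamethasone. Of 12 lymphocyte markers 12 were lower, with sums of 42.3 to 59.4 CPM in saline and 5.39 to 15.6 under dexamethasone. Of 10 dendritic cell markers 8 were lower, with sums of 774 to 1189.6 and 154 to 334 CPM. These sums did not overlap between the groups, whereas those of the other 8 marker lists did. Among the latter, neutrophil markers summed to 407 CPM in saline library 3 but to 32.4 to 42.8 in saline libraries 1, 2 and 5. Under dexamethasone they summed to 35.6 to 71.2 CPM. The 12 endothelial markers summed to 421 to 487 CPM in saline and 402 to 490 under dexamethasone, and the 12 macrophage markers to 2171 to 3162 and 2630 to 3605. Of 6 adipocyte markers 5 were higher and 0 lower, with sums of 664 to 1111 CPM in saline and 863 to 1616 under dexamethasone (mean ratio 1.36; exact permutation, adjusted p 0.0667 over the 11 lists). Of 6 Schwann cell markers 1 was higher and 2 lower, with sums of 245 to 300.0 and 179 to 252 CPM (mean ratio 0.86; exact permutation, adjusted p 0.0423). No marker of these lists was at 0 reads in any library. The part of cell composition in the changes of the feedback genes was not tested.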

How the data were processed

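Per the labels' protocols, polyadenylated RNA was made into stranded libraries. The submitters' processing notes name featureCounts 2.0.1, the build mm10 and limma 3.50.1. No aligner and no strand setting of the counting is given in the sources used here. For each mouse the authors deposited log2 CPM, and for their own comparison log2 fold changes, p-values and log-odds scores (the scores were not used). The table without the excluded saline mouse was analysed, and 1 column, that of the excluded mouse in the other table, was not used. Taken as log2 of reads plus 0.5, scaled to CPM, the deposited log2 values returned whole reads (tolerance 0.01) for 100% of entries.

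The 13 libraries were fitted in limma 3.58.1 (R 4.3.3) by group, moderated along mean intensity. Tests were two-sided, and p-values were adjusted over all genes by the Benjamini-Hochberg method, with a threshold of 0.05. Fold changes are on the deposited log2 scale, whose offset understates changes of scarce genes. Single values per library were compared by exact permutation, with a smallest p of 0.0014. On simulated data (14911 genes), the fit found 86 of 100 genes with a log2 change of 1 and 71 of 100 with 0.5. Of its 164 calls, 7 (4.27%) were false. Only these genes were changed, with independent noise, whereas 48.1% of all genes were called in the data, so the rates of the real test may differ. Exon lengths came from GENCODE on mm10. All 10 genes are described, and besides them the genes of smallest adjusted p in each pathway list (up to 3, mean log2 CPM of at least 0) and a set chosen by role. A few genes that this rule names are not reported here. The genes and lists were chosen with earlier results of these data known. Alternatives were the other table, log2 of CPM plus 1, a filter at a mean log2 CPM of 1, median centring, quantile normalisation, no intensity trend, robust priors, library weights, voom on the returned reads, a permutation test per gene, the mouse number as a block and libraries left out. The ratios of related genes and their alternatives were added after seeing the data. Figures were drawn with matplotlib 3.10.9.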

Additional observations from a re-analysis of the deposited data

Results flagged for a closer look

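Spred1 in saline library 1, at 3.73 log2 CPM, lay far from the other 3 saline libraries, of which the nearest was at 4.07, a gap of 0.893 of the range of the group. Of 20 groups checked (10 genes in saline and in dexamethasone) 1 stood out in this way. At the 95% critical value of Dixon's test, which was used, about 1 group in 20 does so by chance.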

How the results depend on the processing

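Of 260 values of the 10 genes under 26 alternatives each, 256 kept their direction where called and their side of the threshold. The other 4 came from the 8 libraries numbered in both groups, with or without the mouse number as a block: Spry4 lost its call (0.26; adjusted p 0.113 with the block and 0.162 without, limma) and Dusp1 was called lower (-0.32; adjusted p 0.005 and 0.0345, limma), so that 1 of the 10 was lower instead of 0. Those fits use fewer dexamethasone libraries, and the ones left out (4 and 6 to 9) differed from those kept (1, 2, 3 and 5). Spry4 was at 3.40 to 3.54 log2 CPM in those left out and at 2.69 to 3.27 in those kept. Dusp1 was at 5.28 to 5.58 and at 4.90 to 5.36. What sets these libraries apart was not tested. Leaving out 1 library gave 5 higher and 0 lower each time, with 6306 to 7173 genes called in all, against 7173. The log2 fold changes ranged from 0.45 to 0.61 for Spry4, 0.71 to 0.80 for Dusp6, 0.79 to 0.91 for Dusp4, 0.81 to 0.95 for Dusp5 and 0.64 to 0.77 for Spred1. Counts over all pathway lists were 53 to 63 higher and 21 to 30 lower under the alternatives, against 59 and 26. Across genes, the deviations of same-numbered mice correlated at -0.013, -0.070, -0.031 and 0.12. Those of differently numbered mice correlated at -0.18 to 0.18. Whether equal numbers share a day or batch cannot be told from 4 such pairs. The block moved the count of all calls from 6124 to 5959. With the block Per1 was called lower at a log2 fold change of -0.30. On those 8 libraries an exact test of the ratios of related genes has little room to pass after adjustment, and its loss of calls says nothing of their size: they were 1.27 for Dusp4 to Dusp1, 1.02 for Dusp5 to Dusp1, 0.74 for Dusp6 to Dusp7, 0.46 for Spry4 to Spry1 and 0.28 for Spry4 to Spry2. Of the 10 genes, Dusp5, with 49 to 156 reads, is the one whose fold depends most on the offset. Its log2 fold change was 0.66 with log2 of CPM plus 1, against 0.87. Dusp9, which is scarcer and not among the 10, had as little as 0.69 under the alternatives, against 1.15.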

Other observations

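The atypical dual-specificity phosphatases, which lack a MAP kinase binding domain, are a further group. Of 13 measured, 4 were higher and 5 lower (30.8% and 38.5%, against 25.2% and 22.9% of all genes), with a median log2 fold change of -0.11, with 2 higher without saline library 1 or 3 and 1 higher on the 8 libraries numbered in both groups. Dusp18 rose 1.47-fold, while Dusp22 was 1.37-fold and Dusp23 1.46-fold lower, each in 9 of 9 dexamethasone libraries (adjusted p 1.88e-05, 1.98e-06 and 9.71e-06, limma). Of 5 genes of ERK5 and the atypical MAP kinases, 1 was higher and 1 lower (20.0% each, against 25.2% and 22.9% of all genes). Mapk6, an atypical kinase of the ERK family, rose 1.27-fold and Map2k5, the activator of ERK5, was 1.17-fold lower (adjusted p 7.50e-06 and 0.00367, limma). For Nlk, another kinase of this group, the log2 difference was 0.16 (adjusted p 0.0881, limma). It passed when saline library 1 (0.23, adjusted p 0.0208) or saline library 3 (0.21, adjusted p 0.0476) was left out, and the number of higher genes was 2 without saline library 1, 2 or 3.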
